A study of Mus musculus with 24 samples.

Results

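The genes described here encode the subunits of the mitochondrial respiratory chain and of ATP synthase, followed through the development of the mouse retina. They were taken from the deposited gene table by name: protein-coding genes on chromosomes 1 to 19, X or MT whose symbols begin with Nduf and the letter A, B, C, S or V and a digit, with Uqcr, Cox4 to Cox8, Atp5 or mt-, and the 4 genes Sdha, Sdhb, Sdhc and Sdhd. The rule gave 97 genes of 45594 in the table, 84 encoded in the nucleus and 13 in the mitochondrial genome. Complex I held 37 nuclear and 7 mitochondrial genes, complex II 4 nuclear genes, complex III 8 and 1, complex IV 18 and 3, and complex V 17 and 2. A further 29 genes matched by name but were left out, of which 24 were mitochondrial rRNA and tRNA genes, 4 processed pseudogenes and 1 a gene on an assembly patch. The name rule places a few genes by name only. Atp5s and Atp5sl are not core subunits of ATP synthase, Ndufa4 is known as a subunit of complex IV, and Cox7a2l is known for its part in assembling supercomplexes.

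The study sequenced polyadenylated RNA from retinas of C57/Bl6N mice at 4 embryonic stages (E11, E12, E14 and E16, in days) and 8 postnatal ones, from the day of birth (P0) through P2, P4 and P6 to P10 and P14 and, last, P21 and P28, with 2 libraries at each of the 12 stages and 24 in all. Every library came from the same strain and from tissue without any stated treatment, so stage is the only difference that the labels name. Libraries of the first 2 stages were made from 100 ng of total RNA and all later ones from 1 µg, so input changes together with stage between E12 and E14. No source used here gives sex, litter, date or batch, and none states that the 2 libraries of a stage came from separate animals, so p-values measure only the spread between these samples.

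The respiratory chain carries electrons from NADH and succinate to oxygen and pumps protons across the inner mitochondrial membrane, and ATP synthase uses that gradient to make ATP. Complex I takes electrons from NADH, complex II from succinate, complex III passes them to cytochrome c, complex IV passes them to oxygen, and complex V is ATP synthase itself. Complex II is wholly nuclear, whereas each of the others joins nuclear subunits to subunits made inside the organelle from mitochondrial DNA. The adult retina is known for a high demand for energy, much of it in photoreceptors, whose inner segments are packed with mitochondria, and also for strong aerobic glycolysis.

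The mitochondrial genes lie end to end on one small circle, and some share bases, which sets a limit on telling their reads apart. The sequences below show bases that neighbouring genes share, and the few bases by which some copied genes differ from their copies. The first is the stretch that mt-Atp8 and mt-Atp6 share (MT:7927-7969, GRCm38, forward strand), 43 bases that belong to both genes. The other lines give the first 40 bases of mt-Nd3 (MT:9459-9498) and of Gm28438, its copy on chromosome 1 (chr1:24613080-24613119, reverse strand), with the only base at which the copy differs in capitals, T3C counted from 1 at the first base of mt-Nd3. The last 2 lines give the end of mt-Atp6 (MT:8548-8607), with its final 3 bases in capitals, and the end of Gm10925 (chr1:24613974-24614030, reverse strand), a copy of mt-Atp6 that stops before them.
mt-Atp8 and mt-Atp6 overlap: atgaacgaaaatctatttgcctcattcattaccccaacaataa
mt-Nd3: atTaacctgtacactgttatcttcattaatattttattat
Gm28438: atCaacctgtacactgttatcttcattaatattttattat
mt-Atp6: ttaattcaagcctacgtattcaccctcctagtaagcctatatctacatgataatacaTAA
Gm10925: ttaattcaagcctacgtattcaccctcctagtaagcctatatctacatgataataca

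Libraries held 24567532 counts (P2 replicate 1) to 35898879 counts (P28 replicate 2). Retinal markers moved with age, the summed level of 10 photoreceptor markers from 21.5 CPM (counts scaled to a common library total, with edgeR's trimmed mean of M values, TMM) in an E11 library to 91561 in a P21 library, and that of 8 progenitor markers from 5673 to 166. Some early libraries stood apart. Lens markers summed to 3353 CPM in E11 replicate 1 against 22.8 in replicate 2, to 3302 against 245 at E12, and to 2643 against 70.5 at E14, and to 2.17 and 2.44 at E16. Red cell markers summed to 3155 and 7605 at E11 and to 242 and 381 at E16, mesenchyme markers to 111 and 160 at E11 and to 8.59 and 9.08 at E16, and pigment epithelium markers to 144 and 181 at E11 and to 19.1 and 29.3 at E16. All 10 lens markers were above 1 CPM in at least 1 library at E11, and all 10 were below it at E16, with Cryaa and Lim2 at 0. The part of these cells in the results at E11 was not tested.

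In stage means, the mitochondrial share of all counts was highest at P4, P6 and P28, and the nuclear share at E11 and from P4 to P10. The 13 mitochondrial genes took 5.01% and 4.14% of all counts in the E11 libraries, 3.25% and 3.79% at E12, 3.12% and 2.82% at E14, 2.99% and 3.46% at E16, 3.6% and 3.78% at P0 and 2.77% and 2.87% at P2. They took 5.86% in both P4 libraries, 5.87% and 5.58% at P6, 3.62% and 3.8% at P10, 4.04% and 4.25% at P14, 4.11% and 3.83% at P21 and 5.13% and 5.15% at P28. As deposited, the P4, P6 and P28 libraries were all above every other library, though with the chromosome 1 copies described below added E11 replicate 1 stood at 5.4% and both P28 libraries at 5.39%, and the P2 libraries were not separated from the E14 libraries by more than their spread. The 84 nuclear genes together took far less, 0.725% and 0.816% at E11, between 0.563% and 0.623% in every library from E12 to P2, 0.755% and 0.75% at P4, 0.805% and 0.818% at P6, 0.69% and 0.841% at P10, 0.648% and 0.667% at P14, 0.536% and 0.512% at P21 and 0.532% and 0.549% at P28. The P10 libraries differed from each other in the nuclear share by more than those of any other stage. In bulk tissue, fewer cells of a type and less RNA per cell cannot be told apart, and neither share is a measure of mitochondrial number.

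**Figure D1:**
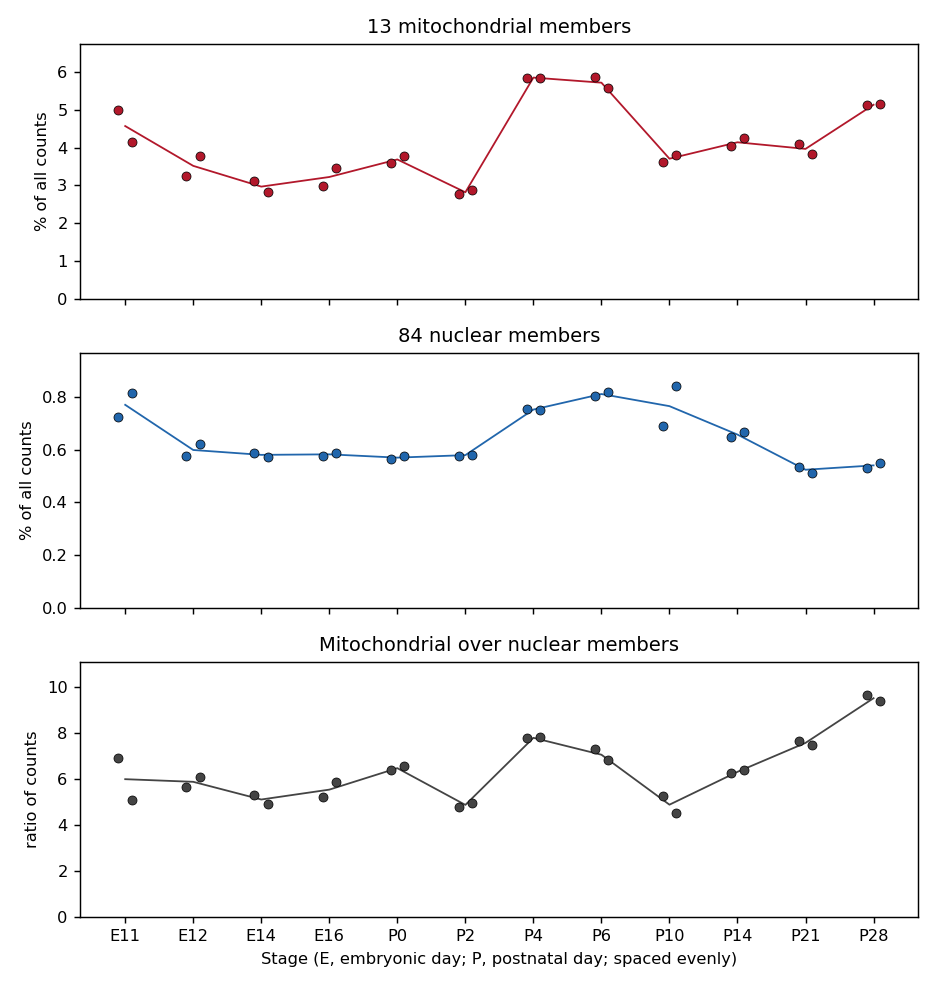
Share of all counts taken by the 13 mitochondrial genes (top) and by the 84 nuclear genes (middle), in percent, and the ratio of their counts (bottom), by stage on an evenly spaced axis. Points are single libraries and lines join the means of 2 libraries. The mitochondrial share doubles between P2 and P4, and the ratio is highest at P28, at 9.64 and 9.39. The mean nuclear share is lowest at P21, whose libraries overlap those of P28.

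The mitochondrial and nuclear shares did not keep a fixed ratio. The mitochondrial genes had 5.99 ± 1.3 counts (SD, n = 2 here and for each mean below) per nuclear count at E11, where the libraries stood at 6.91 and 5.07, 5.11 ± 0.263 at E14 and 4.87 ± 0.113 at P2. The ratio was 7.79 ± 0.0307 at P4, 4.88 ± 0.506 at P10, 6.31 ± 0.101 at P14, 7.57 ± 0.128 at P21 and 9.52 ± 0.181 at P28. Between P10 and P28 the libraries of each stage lay above both libraries of the stage before, while the nuclear share of counts was lower at P28 than at P10. No exact permutation test of 2 libraries against 2 can reach 0.05, and the ratio was not tested over all stages, so these values are a description. Per kilobase of transcript, which allows for differences in length, all 13 mitochondrial genes were above every nuclear one in their mean over the 24 libraries. They ranged from 6409 CPM per kilobase for mt-Co1 to 975 for mt-Nd3. The highest of the nuclear genes was Atp5b, the catalytic beta subunit of ATP synthase, at 586. Polyadenylated RNA was sequenced, and whether transcripts of both genomes were captured alike was not tested.

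Of the 84 nuclear genes, 81 passed the filter on low counts, the exceptions being Cox6a2, Cox7b2 and Cox8c, and all 13 mitochondrial genes passed. Each of these 94 genes differed between at least 2 of the 12 stages, 81 of 81 and 13 of 13, at an adjusted p under 0.05 in edgeR's quasi-likelihood F test with Benjamini-Hochberg adjustment over the 21858 genes tested, of which 88.2% passed. A range of fitted stage means of at least 2-fold was found for 51 nuclear and 11 mitochondrial genes, mt-Nd5 and mt-Nd6 being the mitochondrial exceptions, against 77.3% of all genes tested. By their medians, members varied less than all genes tested, a comparison in which genes were not matched for level. The median ratio of the highest to the lowest stage was 2.14 for nuclear and 2.25 for mitochondrial members and 4.64 for all genes tested. The stages of the highest and lowest level were counted for members only, without the shares among all genes tested. Of the 81 nuclear members 44 peaked at E11 and 16 at P6, and their lowest stages were P21 for 18, E12 for 17 and P28 for 13. Of the 13 mitochondrial genes 7 peaked at P4 and 4 at P28, and 7 were lowest at P2. Base composition stood apart at some of these stages. The median deviation of the GC-richest 20% of all genes less that of the GC-poorest 20% was -0.47 on the log2 scale at E12, 0.59 at P2, -0.40 at P4 and 0.52 at P21, and between -0.16 and 0.18 at the other stages. Its part in the highs and lows at E12, P2, P4 and P21 was not tested.

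Stages were compared in 4 windows, E16 with E11, P6 with E16, P14 with P6 and P28 with P14. Neighbouring windows share the libraries of a stage, so a high value at that stage enters one with a plus and the other with a minus sign. Log2 changes are from the edgeR fit to all libraries, with standard errors (SE), and a gene is called where its adjusted p was under 0.05. The median change of all genes tested was 0.00, 0.01, 0.03 and -0.01 on the log2 scale in these windows.

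From E11 to E16 most members of both genomes fell. The mean nuclear share of counts was 0.771% at E11, 0.599% at E12 and 0.583% at E16, so it was already near its E16 level at E12. Input was 100 ng at E11 and 1 µg at E16, and its part in the falls was not tested. Of the nuclear members 64 of 81 fell and 2 rose, where 23.2% and 22.6% of all genes tested did, and the median change was -0.61 on the log2 scale. At least 2-fold, 4 fell and 2 rose, against 9.11% and 13.6% of all genes. Falls were spread over the complexes, 30 of 37 in complex I (median -0.55), 3 of 4 in complex II (-0.64), 6 of 8 in complex III (-0.56), 9 of 15 in complex IV (-0.50) and 16 of 17 in complex V (-0.67). Of the mitochondrial genes 12 of 13 fell, with a median of -0.54, and mt-Nd3 had a change of -0.07 ± 0.255 (SE). mt-Nd1, a core subunit of complex I, fell by 0.79 on the log2 scale. Atp5b (chr10:128083273-128090391) stood at 1080 and 1442 CPM at E11 and at 761 and 778 at E16, a change of -0.71 ± 0.115 with an adjusted p of 7.09e-05 (edgeR). Its partner Atp5a1, the alpha subunit, stood at 774 and 1077 and then at 605 and 655 CPM (-0.55 ± 0.132, adjusted p 0.00229). For both genes the higher E11 value was that of replicate 2, and the groups did not overlap. Without E11 replicate 1, the library rich in lens markers, 69 nuclear members fell, and without E11 replicate 2, 48 did. The mitochondrial count was 7 without E11 replicate 1 or without E16 replicate 1, and 4 when the model was fitted to these 2 stages alone.

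The largest falls between E11 and E16 among nuclear members of at least 5 CPM were in small accessory subunits and minor isoforms. Atp5g2, one of 3 genes for the c subunit that forms the rotating ring of ATP synthase, stood at 26.1 and 31.9 CPM at E11 and 10 and 11.7 at E16 (-1.42 ± 0.371). Cox6b2, the testis form of a complex IV subunit, stood at 14 and 13.9 and then at 5.78 and 5.19 (-1.35 ± 0.275). Uqcr11 and Uqcr10, small subunits of complex III, fell by 1.12 each on the log2 scale, and Atp5k, the e subunit of ATP synthase, fell by 0.95. In all 5 genes both E16 libraries were below both E11 libraries, which adds no support, since they were chosen by the size of their falls. The only 2 members that rose were Ndufa4l2 and Cox4i2, described with their families below.

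Of the 5 genes just named, 3 have the letters of the binding motif of NRF1, a transcription factor known for acting on respiratory chain genes, in the promoter window around their start. RefSeq (GRCm38.p6) gave windows from 250 bases before to 50 after the start for 69 of the 84 nuclear genes, 75 windows in all, 3 genes being matched through an older symbol. Searched on both strands, GCGCATGCG was present in 8 of the 75 windows (10.7%), against 1.75% of 32851 windows of all genes, in Ndufa8, Ndufa11, Uqcrc1, Uqcr11, Cox6a1, Atp5l, Atp5k and Atp5g2. The shorter form GCATGCGC, which on one strand or the other lies inside every match of the longer one, was in 10 windows (13.3%, against 2.71%), those and Ndufa6 and Sdhb. The motif of ETS factors such as GABP, CCGGAAGT, was in 5 windows (6.7%, against 3.89%), those of Ndufs3, Uqcrh, Uqcr11, Cox8a and Atp5h. A match is a run of letters and not a measured site, and its part in the falls was not tested. The 5 genes were chosen by the size of their falls, and the changes of the other genes with a match are not compared here. The 3 windows of the genes that fell are printed with their matches in capitals: chr10:80406772-80407071 for Uqcr11, chr5:108434350-108434649 for Atp5k and chr15:102670998-102671297 for Atp5g2, all on the reverse strand and read from 5′ to 3′. In Uqcr11 the first capitals are the ETS letters and the second the NRF1 letters, and in the other windows NRF1 matches of both strands overlap.
Uqcr11: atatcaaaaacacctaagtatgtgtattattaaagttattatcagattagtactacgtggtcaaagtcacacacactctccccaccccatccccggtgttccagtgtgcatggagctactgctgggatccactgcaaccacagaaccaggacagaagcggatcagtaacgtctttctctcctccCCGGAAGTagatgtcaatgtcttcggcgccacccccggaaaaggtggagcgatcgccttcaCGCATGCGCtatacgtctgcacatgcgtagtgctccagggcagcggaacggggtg
Atp5k: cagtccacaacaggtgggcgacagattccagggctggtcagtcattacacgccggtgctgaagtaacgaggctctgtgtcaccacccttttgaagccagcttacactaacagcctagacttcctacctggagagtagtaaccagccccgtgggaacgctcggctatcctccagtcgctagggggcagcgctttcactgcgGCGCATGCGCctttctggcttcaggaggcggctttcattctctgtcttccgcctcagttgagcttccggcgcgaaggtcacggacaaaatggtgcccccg
Atp5g2: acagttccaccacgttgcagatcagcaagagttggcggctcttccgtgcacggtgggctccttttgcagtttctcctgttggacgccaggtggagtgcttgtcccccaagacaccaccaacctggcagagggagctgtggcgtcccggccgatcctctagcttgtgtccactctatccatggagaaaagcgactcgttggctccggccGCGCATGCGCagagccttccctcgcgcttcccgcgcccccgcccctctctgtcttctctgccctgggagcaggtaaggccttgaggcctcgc

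From E16 to P6, while photoreceptor markers rose from a sum of 166 and 153 CPM to 8410 and 8324, both genomes' transcripts went up. All 13 mitochondrial genes rose, with a median of 0.70, and 45 of 81 nuclear members rose and 4 fell, with a median of 0.41, against 22.8% higher and 24.3% lower among all genes tested. At least 2-fold, 7 nuclear members and 3 mitochondrial genes rose and 2 nuclear members fell, against 13.2% and 11.7% of all genes. Complex I had 22 of 37 nuclear members higher (median 0.52), complex II 2 of 4 (0.31), complex III 4 of 8 (0.28), complex IV 7 of 15 (0.33) and complex V 10 of 17 (0.52). The steepest nuclear rise of a gene of at least 5 CPM was that of Atp5sl (chr7:25619414-25625551), from 11.8 and 8.75 CPM to 31.2 and 26.7 (1.49 ± 0.159, adjusted p 5.79e-07, edgeR). Atp5sl is known for the assembly of complex I, not for ATP synthase. Steep rises were also found for Ndufa5 of complex I (1.09), Cox8a of complex IV (1.08) and Ndufa4 (1.07). Ndufa4 stood at 87.2 and 102 CPM at E16 and at 204 and 192 at P6, and the groups did not overlap. The members that fell were Cox4i2, Ndufa4l2, Cox6b2 and Cox7a2l, each of which has a paralog among the members, and without P6 replicate 1 the count was 2.

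From P6 to P14 the mitochondrial genes went down again and the nuclear ones were called in both directions. Of the mitochondrial genes 8 of 13 fell, with a median of -0.45, and of the nuclear members 25 of 81 fell and 7 rose, with a median of -0.18, against 19% and 18.8% of all genes tested. At least 2-fold, 1 nuclear member fell and 2 rose, where 5.52% and 10.13% of all genes did. The 7 that rose were Uqcrq, Uqcr11 and Uqcr10 of complex III, Ndufa13 of complex I, Sdha of complex II and Cox4i2 and Cox8b of complex IV, the last under 1 CPM throughout. Of these 7, 6 were among the members of higher GC content, all but Sdha. Uqcrq (chr11:53427922-53430831), a small subunit near the ubiquinone site of complex III, stood at 10.6 and 11 CPM at P6 and at 22.3 and 24.1 at P14 (1.10 ± 0.151, adjusted p 2.11e-05, edgeR), and it then held 24.8 and 19.7 at P21 and 22.8 and 27 at P28. Complex III was thus divided, 3 of its 8 nuclear members rising and 3 falling. Its core protein gene Uqcrc2 went from 202 and 223 CPM to 141 and 159 (-0.50 ± 0.0974). Ndufa4l2 fell by 2.38 on the log2 scale, Atp5o, which belongs to the stalk of ATP synthase, by 0.87, Sdhd by 0.74, Ndufs4 by 0.64 and Ndufs3 by 0.63. The count of falls was 15 without P14 replicate 1, and the count of rises was between 2 and 4 when any library of either stage was left out.

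From P14 to P28 nuclear and mitochondrial transcripts moved in opposite directions. All 13 mitochondrial genes had a positive change and 6 were called: mt-Nd2 (0.72), mt-Nd3 (0.71), mt-Atp8 (0.70), mt-Nd4 (0.52), mt-Cytb (0.49) and mt-Nd4l (0.44). With its chromosome 1 copy added, mt-Nd3 was not called (0.41, adjusted p 0.069, edgeR). Of the nuclear members 28 of 81 fell and 1 rose, with a median of -0.29, against 14.4% lower and 11.3% higher among all genes tested. At least 2-fold, 1 nuclear member fell, against 4.81% of all genes, while 4.05% of all genes rose that far. mt-Cytb, the cytochrome b of complex III, stood at 4288 and 4390 CPM at P14 and at 6081 and 6082 at P28 (adjusted p 0.00187, edgeR), and mt-Nd2 at 1611 and 1777 and then 2770 and 2809 (adjusted p 0.000584). The largest nuclear falls beside Ndufa4l2 were in small subunits, Ndufa1 (-0.98 ± 0.171) and Ndufs5 (-0.82 ± 0.137) of complex I, Atp5l (-0.81 ± 0.136) and Atp5k (-0.67 ± 0.161) of complex V and Cox7c (-0.68 ± 0.145) of complex IV. Ndufa1, encoded on the X chromosome and needed to build the membrane arm of complex I, stood at 39.9 and 36.1 CPM at P14 and at 18.1 and 20.4 at P28. The 1 member that rose was Atp5sl, from 36.9 and 36.5 to 48.2 and 58 (0.53 ± 0.151, adjusted p 0.0152, edgeR). This window rests on few libraries: the count of nuclear falls was between 10 and 14 when any 1 of its 4 libraries was left out, that of the rise 0 or 1, and the mitochondrial count was 4 or 5 without 1 library and 10 when the model was fitted to these 2 stages alone.

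**Figure D2:**
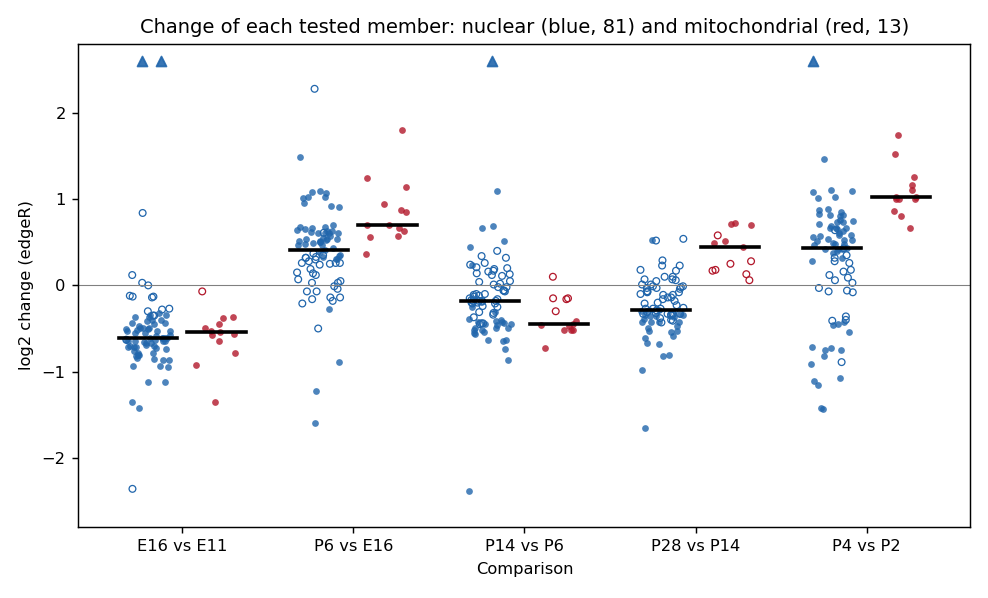
Log2 change of each of the 81 nuclear (blue) and 13 mitochondrial (red) members tested, in the 4 windows and between P2 and P4. Filled points have an adjusted p under 0.05, open points do not, triangles mark values beyond the axis, black bars are medians, and the sideways position of a point within its column is arbitrary. The bars of both colours lie below 0 for E16 vs E11 and above 0 for P6 vs E16 and P4 vs P2, and they lie on opposite sides of 0 for P28 vs P14.

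The step from P2 to P4 was compared after the shares by stage had been seen, because it was the largest step in the mitochondrial share between neighbouring stages, and its size is therefore a description of a chosen step. All 13 mitochondrial genes rose, with a median of 1.02, and 8 of them rose at least 2-fold. Of the nuclear members 45 of 81 rose and 15 fell, with a median of 0.43, against 15.3% and 18.5% of all genes tested, and at least 2-fold 6 rose and 5 fell, against 3.97% and 7.28%. mt-Co1, the catalytic subunit of complex IV, stood at 6912 and 6868 CPM at P2 and at 14379 and 13830 at P4. The largest nuclear rises were Ndufb4 (1.47), Ndufa5 (1.11), Cox7a2 (1.10), Ndufa4 (1.08) and Cox6c (1.03), and the largest falls beside Ndufa4l2 were Ndufs7 (-1.43), Ndufb7 (-1.16), Cox6b2 (-1.11) and Uqcr11 (-1.07). Base composition moved with this step. The difference between GC-rich and GC-poor genes was 0.61 and 0.56 on the log2 scale in the P2 libraries and -0.53 and -0.27 at P4, the widest gap between neighbouring stages. Among the 40 nuclear members of lower GC content (39% to 51.9%) 35 rose and 2 fell, with a median of 0.59, and among the 41 of higher GC content (52% to 61%) 10 rose and 13 fell, with a median of -0.03. With offsets for GC content 48 nuclear members rose and 8 fell. The mitochondrial genes had a median GC content of 37.1%, and the part of base composition in their rise was not tested. In the 4 windows above, the compared stages differed less in this measure: its stage means were -0.08 at E11, -0.11 at E16, -0.16 at P6, 0.07 at P14 and 0.03 at P28. Members still divided by GC content in 2 of them. From E16 to P6, 28 rose and 1 fell among those of lower and 17 rose and 3 fell among those of higher GC content, and from P6 to P14, 1 rose and 15 fell (median -0.28) and 6 rose and 10 fell (-0.06). With GC offsets, 47 nuclear members rose and 4 fell in the first of these windows, and 6 rose and 28 fell in the second.

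By complex, ATP synthase genes held the largest share of the nuclear counts. Complex V genes held 45.3 ± 2.43% of all counts of nuclear members at E11, 42.6 ± 0.0906% at P6 and 38.6 ± 0.721% at P28, and complex I genes 26.6 ± 1.39%, 29.5 ± 0.0879% and 32.1 ± 0.471%. The 2 libraries of each of these stages did not overlap those of the others in either share. The stages between did not form a steady course: complex V held 39.5% at P2, 42.8% at P4 and 39.4% at P21, and complex I 30.9%, 28.4% and 30.9%. P2 and P21 were also the 2 stages with the highest level of GC-rich relative to GC-poor genes, and the part of base composition in these shares was not tested. Over the 12 stage means complex IV held between 12.8% (E12) and 14.6% (E16), complex III between 6.95% (P10) and 8.4% (P28) and complex II between 6.53% (P10) and 8.48% (P21). Within complex II all 4 genes had negative changes from E11 to E16 and from P14 to P28 and positive ones from E16 to P6, and they divided between P6 and P14. Sdha, the flavoprotein that oxidises succinate, was lowest at E16 (187 and 195 CPM) and highest at P21 (350 and 319), whereas Sdhd, a membrane anchor, was highest at E11 (121 and 142) and lowest at P21 (40.9 and 39.1) and P28 (39.3 and 39.4), which overlapped. Sdhb, the iron-sulphur subunit, stood at 84.8 and 99.4 at E11 and at 38.7 and 40.6 at P28, and Sdhc, the other anchor, at 101 in both P4 libraries and at 51.4 and 44.5 at P21. Between P6 and P14 Sdha rose (0.24 ± 0.079, adjusted p 0.0223, edgeR) while Sdhd and Sdhc fell, by 0.74 and 0.41 on the log2 scale. Among mitochondrial genes the 3 complex IV genes held 44.1% of deposited counts at E11, 46.8% at E16 and 39.2% at P28. The copy Gm10925 held 43.5% and 54% of its summed counts with mt-Atp6 at E16, and 0.0138% and 0.00125% at P28. The division of reads between them therefore enters these shares.

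**Figure D3:**
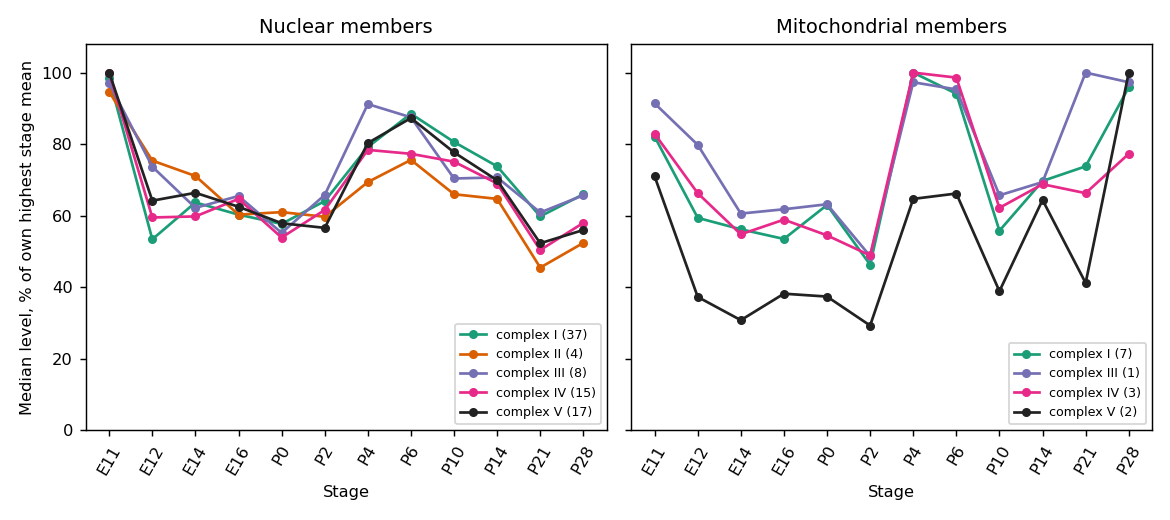
Median over the tested members of each complex of the stage mean as a percentage of that gene's own highest stage mean, for nuclear (left) and mitochondrial (right) members, by stage, with the number of genes in the legend. The nuclear lines are highest at E11 and rise again at P4 to P6, and among mitochondrial lines complexes I and IV peak at P4. The mitochondrial complex V line holds mt-Atp6, whose deposited counts are divided with a copy on chromosome 1, and its low points at E12 to P2, P10 and P21 are affected by that division.

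Among members that reached 1 CPM, the widest ranges over stages were those of 2 alternative subunits known to be induced by low oxygen and to be made in pericytes. Ndufa4l2 (chr10:127514939-127517152), a paralog of Ndufa4, stood at 0.788 and 0.412 CPM at E11, 9.96 and 8.84 at E14, 50.6 and 45 at E16, 24.8 and 23.3 at P0, 109 and 87.8 at P2, 34.4 and 39.2 at P4, 18.9 and 21.8 at P6, 3.77 and 4.07 at P14 and 1.18 and 1.3 at P28. Its highest stage mean was 164 times its lowest, against 2.8 times for Ndufa4, and it rose by 6.30 ± 0.226 on the log2 scale from E11 to E16 (adjusted p 1.1e-12, edgeR). Counted per transcript length, it made up 0.289% and 0.129% of the sum of both paralogs at E11, 22% and 17.6% at E16, 14.3% and 12.4% at P0, 41.5% and 36.3% at P2, 9.63% and 10.8% at P4 and 0.33% and 0.323% at P28. The P2 libraries were the highest and lay above all others. At P2 GC-rich genes also stood highest relative to GC-poor ones, at 0.59 on the log2 scale against -0.11 at P0 and -0.40 at P4. The part of base composition in this share was not tested. Cox4i2 (chr2:152754173-152765037), the alternative form of the complex IV subunit Cox4i1, stood at 2.23 and 2.57 CPM at E11, 26.4 and 24.5 at E16, 8.07 and 8.66 at P6, 14 and 12.8 at P14 and 10.3 and 11 at P28. It rose from E11 to E16 (3.40 ± 0.163, adjusted p 2.73e-11), fell from E16 to P6 (-1.60 ± 0.147, adjusted p 9.88e-08) and rose from P6 to P14 (0.69 ± 0.146, adjusted p 0.00116, edgeR). Its share of both Cox4 genes per length was 1.06% and 1.01% at E11, 13.5% and 12.5% at E16, 3.76% and 3.85% at P6 and 6.35% and 6.92% at P28. The 8 pericyte markers summed to 163 and 187 CPM at E11, 103 and 112 at E16, 36.5 to 40.2 at P2, 119 and 122 at P6, 299 and 303 at P14 and 132 and 148 at P28, and the sum was lowest at P2. Single markers differed from the sum: from E11 to E16, 4 of the 8 rose and 2 fell (median 0.73), with Rgs5 going from 0.532 to 26.7 CPM and Notch3 from 148 to 54.4. The part of pericytes or of oxygen in these changes was not tested.

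**Figure D4:**
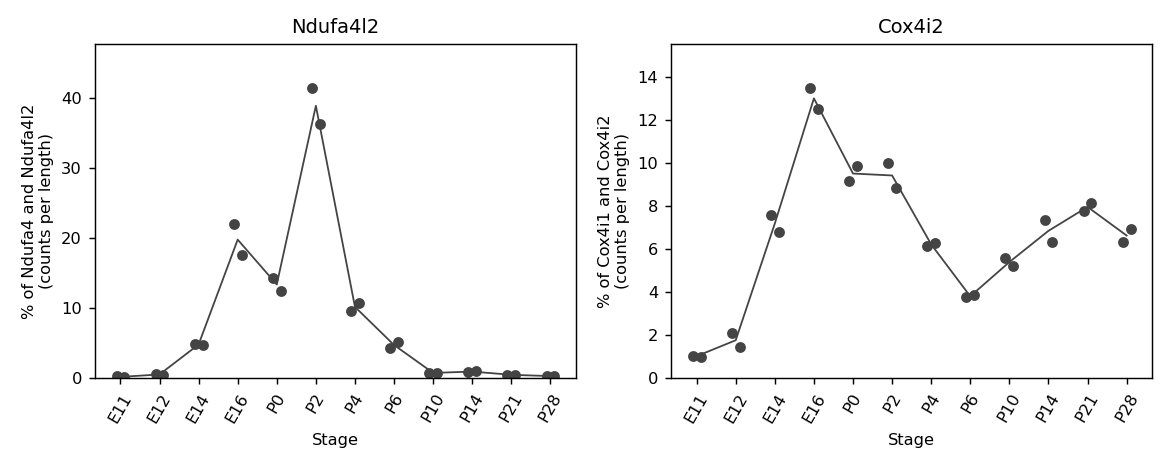
Share of Ndufa4l2 in the sum of Ndufa4 and Ndufa4l2 (left) and of Cox4i2 in the sum of Cox4i1 and Cox4i2 (right), in percent of counts per transcript length, by stage. Points are single libraries and lines join the stage means. Ndufa4l2 reaches 41.5% and 36.3% at P2, and Cox4i2 reaches 13.5% and 12.5% at E16.

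Other paralog families changed less or were nearly silent in one arm. The muscle forms Cox6a2 and Cox8b and the testis forms Cox7b2 and Cox8c were under 1 CPM in every library. Muscle markers summed to between 4.85 and 14.5 CPM and testis markers to between 0.309 and 1.12. Cox6b2, also a testis form, had a mean of 6.03 CPM over the stages. The part of muscle or testis cells in these levels was not tested. Cox7a1, the heart and muscle form, made up at most 2.81% of its family. Its relatives divided the rest: Cox7a2l stood at 61.2% and 59.4% of the family at P2 and 39.4% and 43.1% at P6, and Cox7a2 at 38.2% and 39.9% and then 59.8% and 56.1%. Cox6b2 made up 7.81% and 7.24% of Cox6b counts per length at E11, 1.56% and 2.08% at P6 and 5.79% and 5.06% at P28. The 3 Atp5g genes, whose mature protein is the same, changed in their shares. Atp5g3 was the main source throughout, at 75.1% or more of the family, Atp5g2 held 13.3% and 12% at E11, 7.52% and 7.81% at E16, 14.5% and 13.9% at P2, 4.04% and 3.64% at P6 and 3.28% and 3.49% at P28, and Atp5g1 held 7.84% and 11% at E11 and 16.7% and 14.5% at P28. Atp5g2 was uneven between replicates at E12, at 1.78% and 6.23%. The difference between GC-rich and GC-poor genes was -0.47 at E12, 0.59 at P2 and -0.16 at P6 on the log2 scale. The part of base composition in the shares of these families was not tested.

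Among the mitochondrial genes mt-Nd3 and mt-Atp6 had the widest ranges over stages, and both have a nearly complete copy in the nuclear genome. The gene table lists 7 pseudogenes on chromosome 1 at about the same place that match mitochondrial members over the length compared. Gm10925 (chr1:24613974-24614651, 678 bases) is identical to bases 1 to 678 of mt-Atp6, Gm28661 to mt-Co2 over 681 bases, Gm28437 to mt-Co3 over 783, Gm10222 to mt-Nd4l over 294 and Gm28439 to mt-Nd4 over 876. Gm28438 differs from mt-Nd3 at 1 of 345 bases (T3C), and Gm29216 from the end of mt-Co1 at 1 of 483 (A1066T, counted from the first base of mt-Co1). Reads inside these stretches that do not cover a differing base fit both places equally. mt-Atp6 was listed at 5631 and 5494 CPM at E11, 1114 and 2074 at E12, 1625 and 2351 at E14, 2151 and 2207 at E16, 1546 and 3317 at P0, 1287 and 1572 at P2, 4122 and 5407 at P4, 5060 and 5281 at P6, 3205 and 2553 at P10, 4476 and 4787 at P14, 2300 and 2083 at P21 and 6846 and 6965 at P28. Gm10925 was listed at 882 and 891 CPM at E11, 3209 and 1505 at P0, 2560 and 1267 at P4, 22.5 and 68.7 at P14, 2710 and 2550 at P21 and 0.947 and 0.087 at P28. At P0, P4 and P10 the library with the lower value of the gene had the higher value of its copy. With the copy added, the P0 libraries stood at 4755 and 4822, the P4 libraries at 6683 and 6674, the P21 libraries at 5011 and 4632 and the P28 libraries at 6847 and 6964. The ratio of the highest to the lowest stage mean of mt-Atp6 was 4.83 as deposited and 2.12 with the copy, that of mt-Nd3 6.67 and 3.2, and that of mt-Co2 2.24 and 2.04. The levels of these genes are therefore uncertain where the copy is left apart.

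**Figure D5:**
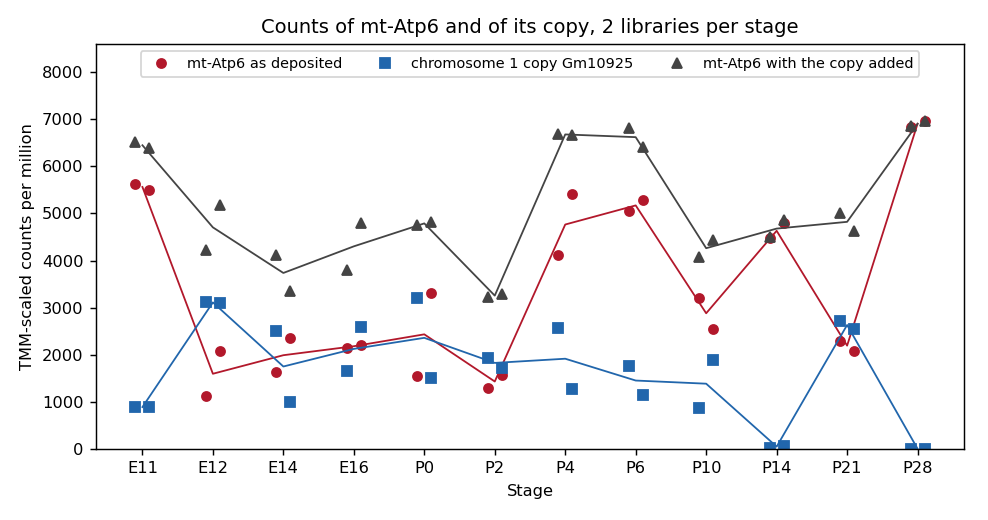
Level of mt-Atp6 as deposited (red circles), of its chromosome 1 copy Gm10925 (blue squares) and of mt-Atp6 with the copy added (grey triangles), in TMM-scaled CPM, by stage, for each of 2 libraries, with lines through the means. At P0 the deposited values of mt-Atp6 are 1546 and 3317 and the sums are 4755 and 4822.

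With all 7 copies added to their genes, the windows kept their directions. The number of mitochondrial genes lower at E16 than at E11 was 13 in place of 12, mt-Nd3 now among them (-0.43, adjusted p 0.036, edgeR), and the number lower at P14 than at P6 was 10 in place of 8. mt-Atp6 changed by -0.58, 0.62, -0.50 and 0.56 in the 4 windows, each called, whereas as deposited it changed by -1.35 ± 0.292, 1.25 ± 0.291, -0.16 ± 0.287 and 0.58 ± 0.288, of which the last 2 were not called. The copies took 0.239% to 0.61% of all counts. A further limit holds for mt-Nd6, the only one of the 13 genes on the other strand, which ends inside mt-Nd5: the libraries were directional, but no source used here says whether the counting used strand, so reads of mt-Nd6 and of the opposite strand cannot be told apart. mt-Nd5 and mt-Nd6 had close values in the windows, -0.54 and -0.53, 0.85 and 0.87, -0.15 and -0.15, and 0.13 and 0.18.

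Genes that build and feed the respiratory chain were counted in the same windows, named here by their later stage. Of all genes tested, 22.6% were higher and 23.2% lower at E16, 22.8% and 24.3% at P6, 18.8% and 19% at P14 and 11.3% and 14.4% at P28, and several of the counts below lie near these shares. Factors that assemble the complexes fell at E16 in 28 of 46 and rose in 1 (median -0.47), rose in 14 and fell in 7 at P6 (0.11), rose in 5 and fell in 10 at P14 (-0.11) and rose in 9 and fell in 1 at P28 (0.16). At P28 their median therefore had the sign of the mitochondrial genes and not that of the nuclear subunits. Uqcc2 and Coa7, assembly factors of complexes III and IV, fell at E16 by 1.21 and 0.96, Ttc19 of complex III and Surf1 of complex IV rose at P6 by 1.08 and 1.00, and Uqcc3 rose at P14 (0.76) and at P28 (0.66). Among the enzymes of the citric acid cycle and pyruvate dehydrogenase, 15 of 16 fell at E16 (-0.53), 10 rose and 1 fell at P6 (0.36), 3 rose and 3 fell at P14 (-0.13), and 1 rose and 7 fell at P28 (-0.17). Citrate synthase (Cs) fell at P28 from 212 ± 4.74 to 138 ± 11.3 CPM (-0.62), and Suclg2, the GTP-forming partner of succinyl-CoA ligase, fell at P6 from 56.7 ± 9.29 to 12 ± 0.843 (-2.23). Of the 12 carriers and channels 8 fell and 2 rose at E16 (-0.39), 8 rose and 1 fell at P6 (0.42), 3 rose and 2 fell at P14 (0.02) and 2 fell at P28 (-0.12). Ckmt1, the mitochondrial creatine kinase, rose at E16 (4.48) and again at P6, from 5.72 ± 0.0894 to 75.4 ± 9.16 CPM (3.72), while Slc25a5, an ATP and ADP exchanger, fell at E16 from 345 ± 109 to 124 ± 4.79 (-1.48).

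The next lists hold genes that maintain, process and translate the mitochondrial genome, to be read against the same shares of all genes (22.6% and 23.2%, 22.8% and 24.3%, 18.8% and 19%, 11.3% and 14.4%). Of the 77 proteins of the mitochondrial ribosome 70 fell at E16 (median -0.68), 9 rose and 13 fell at P6 (-0.03), 40 fell at P14 (-0.37) and 5 rose and 2 fell at P28 (-0.06). Mrpl4 and Mrpl19 fell most at E16, by 1.41 and 1.37. Of the 17 genes that process mitochondrial RNA 13 fell at E16 (-0.64), 5 fell at P6 (-0.08), 1 rose and 5 fell at P14 (-0.16) and 2 rose and 1 fell at P28 (0.14). Hsd17b10, a subunit of the enzyme that cuts tRNAs out of the precursor, fell at E16 from 76.4 ± 3.62 to 35 ± 2.08 CPM (-1.13) and at P14 from 21.3 ± 0.149 to 8.01 ± 0.508 (-1.41), and Lrpprc, which stabilises mitochondrial mRNA, rose at P28 from 95.5 ± 8.83 to 130 ± 0.372 (0.45). Of the 9 genes of mitochondrial DNA maintenance tested 1 rose and 3 fell at E16 (-0.03), 2 rose and 2 fell at P6 (-0.15) and at P14 (-0.21), and 1 rose at P28 (0.21), which at P6 and P14 is about the share among all genes. Polg2, the accessory subunit of the mitochondrial DNA polymerase, rose at P14 from 15.3 ± 1.78 to 47.1 ± 1.49 CPM (1.62).

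Among 17 regulators of mitochondrial biogenesis, 3 rose and 5 fell at E16 (-0.21), 5 rose and 7 fell at P6 (-0.22), 5 rose and 8 fell at P14 (-0.35) and 4 rose at P28 (0.22), where 22.6%, 22.8%, 18.8% and 11.3% of all genes rose and 23.2%, 24.3%, 19% and 14.4% fell. The coactivator Ppargc1a (PGC-1 alpha) rose at P6 from 5.71 ± 0.413 to 35.8 ± 0.0607 CPM (2.65 ± 0.243, adjusted p 9.88e-08, edgeR) and rose again at P14 (1.03). Its relative Ppargc1b rose at P6 from 0.889 ± 0.448 to 16 ± 0.416 (4.19) and at P14 to 77.1 ± 9.25 (2.25). The nuclear receptor Esrrb, known from rod photoreceptors, rose at P14 from 13.6 ± 1.34 to 268 ± 20.5 (4.30). Gabpa and Gabpb1, the subunits of GABP, fell at P14 by 0.61 each on the log2 scale. These 2 were named after their values were seen. Of 20 genes of glycolysis, the other route to ATP, 3 rose and 10 fell at E16 (-0.39), 7 rose and 7 fell at P6 (0.07), 11 rose and 1 fell at P14 (0.68) and 6 rose and 1 fell at P28 (0.24). Slc16a1, the lactate transporter MCT1, rose at P14 from 23.9 ± 1.17 to 260 ± 17.3 CPM (3.44), and Hk2, the hexokinase isoform that docks on mitochondria, rose at P28 from 43.6 ± 1.25 to 368 ± 76.5 (3.08). Between P2 and P4, where 15.3% of all genes rose and 18.5% fell and base composition shifted, the lists gave 14 higher and 9 lower of 46 assembly factors, 18 and 12 of 77 ribosomal proteins, 8 and 2 of 17 RNA processing genes, 5 and 3 of 17 regulators, 2 and 2 of 9 DNA maintenance genes, 6 and 4 of 16 citric acid cycle genes, 4 and 6 of 20 glycolysis genes, and 7 higher of 12 carriers and channels. With GC offsets the change of Mrpl4 in this step went from -0.62 to 0.31.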

How the data were processed

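Polyadenylated RNA of 24 retina libraries was analysed. The authors deposited estimated counts per gene and per transcript; kallisto 0.42.4, edgeR 3.13.9 and GRCm38.p5 are named in the submitters' processing notes, and no source used here says how transcripts were combined into genes. A deposited table of normalized CPM, a signal scaled by the authors, was used for shares as an alternative. Members and lists were chosen with earlier results of these data known.

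Estimated gene counts were rounded, filtered (filterByExpr, minimum count 10), TMM-scaled and fitted with 1 coefficient per stage in edgeR 4.0.16 (limma 3.58.1, R 4.3.3), with Benjamini-Hochberg adjustment over 21858 genes. The script was tested on simulated counts for P6 vs E16. It recovered 14.1% of 64 genes changed 1.5-fold, 57.6% of 66 changed 2-fold and 70.3% of 64 changed 4-fold, with 4 false calls. Those genes were drawn from all genes tested, so the rates for members may differ. A member not called is therefore not shown to be unchanged. Levels are TMM-scaled CPM, per kilobase between genes; SE is the absolute log2 change over the square root of F. Genes named were drawn from all mitochondrial members, the 2 most abundant nuclear members of each complex, all paralog families, the Sdh genes, the 5 largest called rises and falls per window at 5 CPM or more, and up to 2 called genes of at least 1 CPM per list and window. Members named beside these (in motif matches and as the only called genes of a count) were chosen after their values were seen. Not every gene that meets the rule is reported here. Replicate numbers do not pair samples. DESeq2 1.42.0 and the other alternatives are given in the closing section.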

Additional observations from a re-analysis of the deposited data

How the results depend on the processing

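Over the 66 pairs of stages, deviations of same-numbered libraries correlated between -0.057 and 0.127 (2 over 0.1), so the numbers do not pair the samples. With a replicate block, 65 nuclear members were lower and 2 higher in E16 vs E11, 47 higher and 4 lower in P6 vs E16, 7 higher and 27 lower in P14 vs P6, 1 higher and 29 lower in P28 vs P14, and 46 higher and 16 lower in P4 vs P2, and the mitochondrial counts were 12 lower, 13 higher, 8 lower, 6 higher and 13 higher.

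DESeq2, RLE size factors, library size alone and a filter of 1 CPM in 4 libraries moved no count of members by over 1.5 times, nor did leaving mitochondrial genes out of the library sizes move any nuclear count, the only ones run that way. A threshold of at least 2-fold left 51 nuclear members over the 12 stages. In the windows in order and then P4 vs P2 it left 4 nuclear falls (E16 vs E11), 7 rises and 2 falls, 2 rises and 1 fall, 0 rises and 1 fall, and 6 rises and 5 falls, and among mitochondrial genes 1, 3, 0, 0 and 8. P28 vs P14 had 2 nuclear rises with no filter and 2 with the compared stages only, which also gave 4 mitochondrial falls in E16 vs E11 and 10 rises in P28 vs P14. GC offsets gave 8 nuclear falls in P4 vs P2 and turned Cox6a1 to 0.23, Ndufa13 to 0.21 and Mrpl4 to 0.31. Without 1 library, nuclear falls were 2 to 3 in P6 vs E16, nuclear rises 2 to 4 and falls 15 to 20 in P14 vs P6, rises 0 to 1 and falls 10 to 14 in P28 vs P14, and mitochondrial falls 7 to 12 in E16 vs E11. The lone library left is assumed to vary like the other stages. Of 6482 alternative values of the genes named, 5956 kept direction and call, 523 lost the call and 3 turned. The cause was not tested.

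With transcript counts summed per gene, the mitochondrial share was 2.96% (P2), 5.97% (P4), 4.18% (P21) and 5.19% (P28), the nuclear share 0.567% (E16), 0.613% (P2), 0.731% (P4), 0.785% (P6), 0.573% (P21) and 0.568% (P28), and the ratio 8.16 (P4), 7.39 (P6), 6.17 (P14), 7.29 (P21) and 9.13 (P28). Complex shares were 29.9% for I, 7.67% for III, 14.3% for IV and 41.6% for V at P6, 7.85% for II, 7.98% for III, 13% for IV and 39.4% for V at P28, and 7.94% for III at E11. Paralog shares were 8.45% (P2) and 6.2% (P28) for Cox4i2, 0.678% for Cox7a1 (P2), 9.92% (E16) and 8.15% (P2) for Atp5g1, 10.4% (E11), 6.96% (E16), 12% (P2) and 3.93% (P28) for Atp5g2, and 0.37% for Ndufa4l2 (P28). With the chromosome 1 copies added, chosen after seeing the data like the GC offsets and P4 vs P2, the mitochondrial share from E12 to P28 was 4.09%, 3.33%, 3.72%, 4.18%, 3.16%, 6.4%, 6.21%, 4.13%, 4.39%, 4.48% and 5.39%, and the ratio 6.83, 5.73, 6.37, 7.33, 5.45, 8.5, 7.65, 5.43, 6.67, 8.55 and 9.98.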
